A study of Mus musculus with 6 samples.

Results

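AP-1 transcription factors were examined in neutrophils sorted from mouse peripheral blood (PB), as the 10 genes *Fos*, *Fosb*, *Fosl2*, *Jun*, *Junb*, *Jund*, *Atf3*, *Batf*, *Maff* and *Mafk* among the 29097 genes listed. The members were chosen by gene name, and each name occurred on 1 row of the deposited table. Control mice (Ctrl) carried no ligature, and mice with ligature-induced periodontitis (LIP, named Lig in the labels) had silk ligatures on their second molars for 14 d. All mice were male C57BL/6 wild-type animals, 8 weeks old. Each group had 3 Smart-seq2 libraries, and each library was a pool of CD45+CD11b+Ly6G+ cells from 5 mice, so differences between single mice cannot be seen.

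AP-1 is a dimer of basic leucine zipper (bZIP) proteins that binds a short palindromic DNA element. Fos proteins cannot pair with each other and need a Jun partner, whereas Jun proteins can also pair among themselves. ATF3 and BATF share Jun partners with the Fos proteins, and the small Maf proteins MAFF and MAFK have a zipper but no transactivation domain. *Fos*, *Junb* and *Atf3* are immediate early genes, transcribed shortly after a cell receives a signal, and in neutrophils AP-1 is known to act on cytokine and protease genes.

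The libraries held 52186555 to 57262379 counted reads. Of the 21 neutrophil genes listed as markers, called the mature neutrophil genes below, 21 were higher in LIP. Together they took 1.89 to 2.07% of the counts in Ctrl and 5.56 to 5.90% in LIP. Their log2 fold changes under TMM ran from 0.39 to 2.51. The granule genes *Camp*, *Ngp* and *Ltf*, which need not mark mature cells, rose least, by 0.39, 0.81 and 0.91. B cell, T cell and erythroid markers moved the opposite way. The 13 B cell genes took 2.12 to 2.28% of the counts in Ctrl and 0.343 to 0.351% in LIP, the 13 T cell genes 0.110 to 0.125% and 0.0227 to 0.0241%, and the 11 erythroid genes 14.7 to 15.2% and 1.57 to 1.63%. None of these markers was at 0 in any library. The 11 monocyte genes took 0.178 to 0.183% and 0.187 to 0.203%, and the 8 platelet genes 0.108 to 0.129% and 0.216 to 0.265%. Although the summed share of the monocyte genes moved little, 8 of the 11 were called higher and 1 lower under TMM, with a median log2 fold change of 0.94. All 8 platelet genes were called higher, with a median of 1.23. AP-1 genes are also transcribed in lymphocytes and monocytes. In these bulk samples fewer cells of a type and less RNA per cell cannot be told apart, and the part of these other cells in the AP-1 values was not tested.

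The promoters of 4 members are shown, because 3 of them (*Fos*, *Junb* and *Batf*) belong to genes that rose and 1 (*Jun*) to a gene that was not called. Each runs 5′ to 3′ on the gene's strand from 250 bases before to 50 after the start site given by RefSeq (build GRCm38.p6). Capitals mark 3 motifs, each searched on both strands. The first is the core of a cyclic AMP response element (CRE), spelled TGACG. The second is a TATA box, spelled TATAAA, and the last is the AP-1-like element known from the *Jun* promoter, spelled TGACATCA.
Fos, chr12:85473640-85473939, plus strand: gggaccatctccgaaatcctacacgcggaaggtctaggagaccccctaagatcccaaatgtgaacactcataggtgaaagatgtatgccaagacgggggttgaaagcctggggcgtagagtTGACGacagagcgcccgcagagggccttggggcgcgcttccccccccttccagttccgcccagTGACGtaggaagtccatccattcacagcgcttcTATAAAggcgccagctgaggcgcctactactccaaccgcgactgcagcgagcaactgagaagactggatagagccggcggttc
Junb, chr8:84978699-84978998, minus strand: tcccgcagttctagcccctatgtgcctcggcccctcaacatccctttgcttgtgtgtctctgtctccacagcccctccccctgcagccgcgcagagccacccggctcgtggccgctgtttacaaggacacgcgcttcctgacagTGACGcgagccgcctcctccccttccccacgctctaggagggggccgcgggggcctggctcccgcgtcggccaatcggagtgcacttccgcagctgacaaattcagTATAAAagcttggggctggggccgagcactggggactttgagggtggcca
Batf, chr12:85686470-85686769, plus strand: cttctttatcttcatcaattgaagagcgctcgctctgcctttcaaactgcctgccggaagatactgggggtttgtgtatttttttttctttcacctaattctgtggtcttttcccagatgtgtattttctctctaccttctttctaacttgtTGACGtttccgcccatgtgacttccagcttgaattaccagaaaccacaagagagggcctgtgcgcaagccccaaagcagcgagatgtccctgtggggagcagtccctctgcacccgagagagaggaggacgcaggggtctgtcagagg
Jun, chr4:95052173-95052472, minus strand: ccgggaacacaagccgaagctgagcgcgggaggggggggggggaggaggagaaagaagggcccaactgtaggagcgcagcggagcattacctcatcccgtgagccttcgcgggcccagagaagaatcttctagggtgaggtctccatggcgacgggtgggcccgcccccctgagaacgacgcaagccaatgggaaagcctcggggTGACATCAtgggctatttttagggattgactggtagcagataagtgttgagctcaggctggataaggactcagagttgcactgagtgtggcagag

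TGACG occurred in the window of 7 of the 10 members (*Fos*, *Fosb*, *Junb*, *Atf3*, *Batf*, *Maff* and *Mafk*), and in 20.8% of all 32851 promoter windows. Its copies for *Fos* began 129 and 66 bases before the start site, that of *Junb* 106 and that of *Batf* 98 bases before it. It was found both in members that rose and in *Maff* and *Mafk*, which were not called, and it was not in the windows of *Fosl2*, *Jun* and *Jund*. The full CRE, TGACGTCA, which holds TGACG on both strands, occurred for *Maff* alone and in 1.79% of all windows. TATAAA occurred for *Fos* and *Junb* and in 13.6% of all windows. TGACATCA occurred for *Jun* and *Maff* and in 3.62% of all windows, while the consensus AP-1 site TGANTCA (7.81% of all windows) and the serum response element (1.63%) were found for no member within these 300 bases. *Maff* has 3 start sites in RefSeq, and a match at any of them was counted. The RefSeq start of *Jund* lies 1210 bases upstream of the gene start in the deposited table, while those of *Atf3* and *Fosl2* lie downstream of it, so these windows may not be the promoters in use here. For *Junb* the RefSeq start lies 30 bases upstream of the deposited one, and the TATAAA begins at the RefSeq start itself, so distances in this window depend on the start chosen. A match is a description of the letters and does not show that a factor bound.

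Some AP-1 mRNAs, such as that of *Fos*, are known to be short-lived through AU-rich elements near their 3′ ends. In the longest annotated 3′ ends after the stop codon (GENCODE M21, GRCm38), the nonamer TTATTTATT, in capitals in the stretches of 30 bases given here, occurred for 3 members and in 7.39% of the 8592 tested genes with a coding transcript.
Fos: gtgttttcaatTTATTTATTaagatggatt
Fosl2: catttattttaTTATTTATTttaaatgttt
Maff: cttccacactcTTATTTATTgcacgaatct
*Fos* and *Fosl2* had the highest log2 fold changes of the 10 members, and *Maff* was not called. The shorter ATTTA occurred at least once for all members except *Batf*, from 1 copy for *Fosb* and *Jund* to 8 for *Fosl2*, and in 67.8% of the tested genes. Matches were not adjusted for length. The 3′ end had 4653 bases for *Fosl2*, 2302 for *Fosb* and 533 for *Jund*, beside a median of 1050 for the tested genes. For *Fosb* the transcript with the longest 3′ end has 603 coding bases, and part of its 3′ end may be coding in other transcripts.

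Of the 10 members, 6 rose in LIP and none fell at an adjusted p under 0.05 (edgeR's quasi-likelihood test on counts after TMM normalization, Benjamini-Hochberg adjustment over 10440 genes). No member had a log2 fold change under 0 in this fit, so none fell at an unadjusted p under 0.05 either, while limma on log2(FPKM + 1) called 1 member, *Jun*, lower at -0.29 (adjusted p = 0.0193). All 10 had passed the filter of a mean FPKM of at least 1. Over all genes tested, 53.6% were called, 26.5% higher and 27.2% lower. The 6 were *Fosl2*, *Fos*, *Atf3*, *Batf*, *Junb* and *Fosb*, and *Jun*, *Jund*, *Maff* and *Mafk* were not called. The median log2 fold change of the members was 0.82, beside -0.10 for all genes tested. Libraries of the groups did not overlap for 8 members, each higher in LIP, where 63.4% of all genes tested did not overlap, 30.3% higher and 33.1% lower. These directions depend on the scaling of the libraries, since all 10 members had a lower value in LIP once size factors were taken from the mature neutrophil genes. That scaling put the median over all genes tested at -1.83 (log2), with 91 genes higher and 9066 lower. With library totals the median was -0.42, with 1919 genes higher and 4146 lower, beside 2766 and 2835 under TMM.

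**Figure D1:**
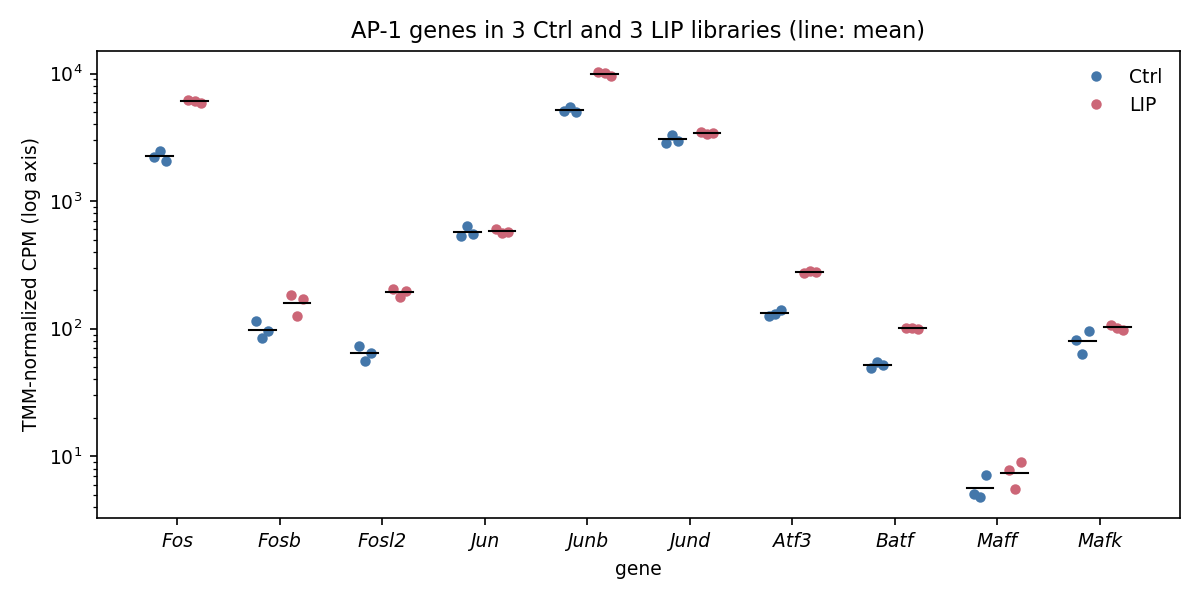
Points are TMM-normalized CPM (log axis) of the 10 AP-1 genes in the 3 Ctrl and 3 LIP libraries, and lines are group means. *Fos*, *Fosb*, *Fosl2*, *Junb*, *Jund*, *Atf3*, *Batf* and *Mafk* were higher in each LIP library than in each Ctrl library on this scale, all of which turned lower with size factors from the mature neutrophil genes, and *Jun* and *Maff* overlapped.

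Coordinates are those of the deposited table (GRCm38), and in GENCODE M21 *Jun*, *Junb* and *Jund* have 1 exon each while the other members have 3 or 4. Among the Fos proteins, *Fos* itself, the prototype member (ENSMUSG00000021250, chromosome 12 from 85473890 to 85477273), had 2225, 2450 and 2066 CPM (read counts scaled to a common library size with TMM factors) in the Ctrl libraries and 6214, 6129 and 5918 CPM in the LIP libraries. Each LIP library was higher than any Ctrl library, and the LIP libraries lay close together. This was a log2 fold change of 1.44 ± 0.0761 (standard error, edgeR adjusted p = 2.87e-07), a 2.71-fold difference. *Fosl2* (ENSMUSG00000029135, chromosome 5 from 32135801 to 32157842), which encodes FRA-2, a Fos protein without the strong activation domain of FOS, had 73.2, 55.9 and 64.3 CPM in Ctrl and 204, 178 and 197 CPM in LIP. The groups were well apart, although its level was low beside *Fos*. Its log2 fold change of 1.58 was the highest of the members (standard error 0.131, adjusted p = 4.19e-06 from edgeR). *Fosb* (ENSMUSG00000003545, chromosome 7 from 19302696 to 19310051), whose product resembles FOS in its bZIP region, had 114, 85.1 and 95.2 CPM in Ctrl and 184, 126 and 171 CPM in LIP. LIP replicate 2 stood only a little above the highest Ctrl library. The log2 fold change of *Fosb* was 0.71 (standard error 0.164, adjusted p = 0.00448 from edgeR), and with library totals in place of TMM it was 0.38 and no longer called (adjusted p = 0.0749).

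Among the Jun proteins, only *Junb* rose under TMM, and it fell with size factors from the mature neutrophil genes. *Junb* (ENSMUSG00000052837, chromosome 8 from 84976910 to 84978718), a Jun protein that restrains proliferation of myeloid cells, had 5128, 5493 and 5004 CPM in Ctrl and 10282, 10077 and 9629 CPM in LIP. No LIP library came near the Ctrl range. This was a log2 fold change of 0.94 ± 0.0618 (standard error, edgeR adjusted p = 9.85e-07). *Jun* (ENSMUSG00000052684, chromosome 4 from 95049034 to 95052222), the prototype Jun and a strong activator, had 531, 643 and 555 CPM in Ctrl and 607, 566 and 572 CPM in LIP. The LIP values lay inside the Ctrl range, and Ctrl replicate 2 was the highest of the 6 libraries. Its log2 fold change was 0.01 under TMM (standard error 0.0973, adjusted p = 0.921 from edgeR), but it was -0.31, lower in LIP, with library totals (adjusted p = 0.0154). *Jund* (ENSMUSG00000071076, chromosome 8 from 70698949 to 70700616), a Jun protein present in resting cells, had 2866, 3311 and 2982 CPM in Ctrl and 3453, 3382 and 3416 CPM in LIP. The LIP libraries lay just above the highest Ctrl library. The log2 fold change of 0.16 was not called (standard error 0.0725, adjusted p = 0.0809 from edgeR), turned to -0.16 with library totals (adjusted p = 0.0608), and was called without Ctrl replicate 2, at 0.24 (adjusted p = 0.00299). *Jund* shares 919 bases with the antisense gene *Gm11175*, which had a mean FPKM of 28.2, and reads in the shared bases are uncertain because the use of strand in counting is not given in the sources used here. In FPKM, whose library totals follow no TMM factor, *Jund* was lower in each LIP library (1675 to 1695) than in each Ctrl library (1782 to 1992), and so was *Jun*, at 147 to 156 against 173 to 202. *Jun* shares 689 bases with the antisense gene *Junos*, which had a mean FPKM of 0.0998.

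*Atf3* and *Batf* encode partners of Jun proteins, ATF3 being a stress-induced repressor of inflammatory genes and BATF a factor of lymphocyte and dendritic cell differentiation. *Atf3* (ENSMUSG00000026628, chromosome 1 from 191170296 to 191218039) had 126, 131 and 141 CPM in Ctrl and 274, 284 and 278 CPM in LIP. The groups were apart by far more than the spread within either. On the log2 scale LIP stood 1.07 ± 0.0996 above Ctrl (standard error, edgeR adjusted p = 9.79e-06). *Batf* (ENSMUSG00000034266, chromosome 12 from 85686669 to 85709087) had 49.6, 54.7 and 52.2 CPM in Ctrl and 102, 101 and 98.8 CPM in LIP. Both groups were tight and did not overlap, and the log2 fold change came to 0.95 ± 0.115 (standard error, edgeR adjusted p = 6.56e-05). B and T cell marker counts were lower in LIP, and the cell source of the *Batf* mRNA was not tested. With size factors from the mature neutrophil genes *Atf3* and *Batf* turned to -0.66 and -0.79.

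The small Maf genes, whose products pair with CNC proteins such as NRF2 and BACH1, were not called. *Maff* (ENSMUSG00000042622, chromosome 15 from 79346621 to 79359076) had 5.04, 4.83 and 7.16 CPM in Ctrl and 7.79, 5.55 and 9.02 CPM in LIP, from 280 to 421 reads per library. The groups overlapped, and the log2 fold change came to 0.39 ± 0.333 (standard error, edgeR adjusted p = 0.339). *Mafk* (ENSMUSG00000018143, chromosome 5 from 139791513 to 139802653) had 81.4, 63.5 and 95.2 CPM in Ctrl and 108, 102 and 98.6 CPM in LIP. Its Ctrl libraries were widely spread, and the lowest LIP library lay just above the highest Ctrl library. This was a log2 fold change of 0.36 ± 0.152 (standard error, edgeR adjusted p = 0.0668), and *Mafk* was called with median-of-ratios size factors, at 0.40 (adjusted p = 0.0402), in DESeq2, at 0.40 (adjusted p = 0.0225), and without Ctrl replicate 3, at 0.51 (adjusted p = 0.0281).

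The make-up of the AP-1 mRNA pool was compared within libraries, where the scaling between libraries plays no part. The mix of cells, whose markers differed between the groups, still enters such values. Its part in these levels, shares and ratios was not tested. Levels of different genes were set side by side as FPKM, which are divided by gene length. *Junb* was the most abundant member in each of the 6 libraries, with 2933 ± 118 FPKM in Ctrl and 4551 ± 136 FPKM in LIP (SD, n = 3 each), and by mean FPKM it ranked 19 among all genes listed. *Jund* and *Fos* ranked 32 and 38. Their order differed between the groups. In Ctrl *Jund* came next to *Junb* (1864 ± 113 FPKM, SD, n = 3) and stood above *Fos* (973 ± 76.6 FPKM, SD, n = 3), whereas in LIP *Fos* (2131 ± 46.5 FPKM, SD, n = 3) stood above *Jund* (1687 ± 10.6 FPKM, SD, n = 3). In both groups these were followed by *Jun*, *Atf3* and *Batf*, which did not overlap. *Mafk* and *Fosb* overlapped in both groups, at 20.9 ± 4.29 and 16.1 ± 2.69 FPKM in Ctrl and 21.7 ± 0.864 and 21.1 ± 3.95 FPKM in LIP (SD, n = 3 each). *Fosl2* came next, below *Fosb* without overlap in Ctrl but overlapping it in LIP (15.2 to 17.3 beside 16.6 to 24.2 FPKM). *Maff* was the lowest member, at 2.22 ± 0.503 FPKM in Ctrl and 2.36 ± 0.551 FPKM in LIP (SD, n = 3 each).

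Of the summed FPKM of the 10 genes, *Fos* made up 16.3, 16.3 and 15.3% in the Ctrl libraries and 24.3, 24.5 and 24.3% in the LIP libraries. *Jund* made up 29.6, 31.0 and 31.0% in Ctrl and 19.0, 19.0 and 19.8% in LIP. *Jun* made up 3.01% ± 0.142 and 1.72% ± 0.0456, and *Junb* 48.1% ± 0.691 and 52% ± 0.478 (SD, n = 3 each). In each case the libraries of the groups did not overlap. A larger share went to *Fos* in LIP, and a smaller one to *Jund* and *Jun*. The 10 genes together took 1.22 to 1.34% of all counts in Ctrl and 1.82 to 1.88% in LIP.

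**Figure D2:**
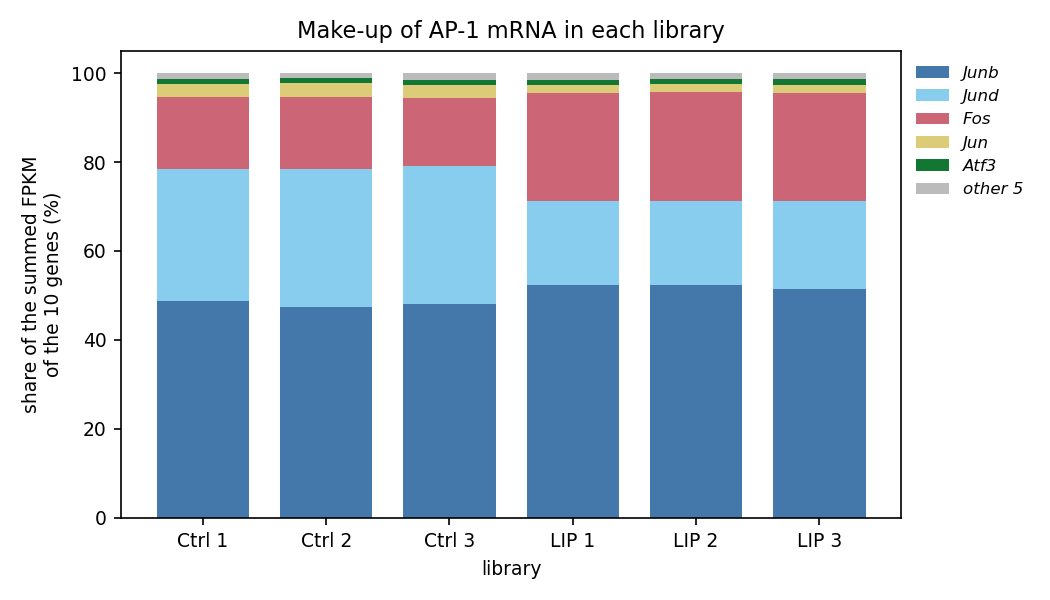
Bars give each gene's share (%) of the summed FPKM of the 10 AP-1 genes in each library, and the 5 genes of lowest level are drawn together. *Fos* takes 15.3 to 16.3% in the Ctrl libraries and 24.3 to 24.5% in the LIP libraries, and *Jund* 29.6 to 31.0% and 19.0 to 19.8%.

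Ratios of these levels were compared next. The FPKM of *Fos*, *Fosb* and *Fosl2* summed to 0.206, 0.203 and 0.190 times that of *Jun*, *Junb* and *Jund* in the Ctrl libraries and to 0.339, 0.340 and 0.340 times in the LIP libraries. On the log2 scale the ratio differed by 0.77, and no libraries overlapped (exact permutation test, two-sided, p = 0.1, the lowest value possible with 3 libraries against 3). *Fos* stood at 0.334, 0.343 and 0.318 times *Junb* in Ctrl and at 0.465, 0.468 and 0.473 times in LIP, a difference of 0.50 on the log2 scale (exact permutation test, p = 0.1). *Jun* stood at 0.0969, 0.102 and 0.0974 times *Jund* in Ctrl and at 0.0920, 0.0875 and 0.0876 times in LIP, a difference of -0.15 (exact permutation test, p = 0.1). After Benjamini-Hochberg adjustment over the 3 ratios each p stayed at 0.1, and the design cannot reach 0.05. More Fos-family mRNA per Jun-family mRNA was thus measured in each LIP library. The *Jun* to *Jund* ratio differed less, but it was lower in each LIP library than in each Ctrl library. *Fos* made up nearly all of the Fos-family sum, at 2131 FPKM in LIP beside 21.1 for *Fosb* and 16.4 for *Fosl2*. The family ratio is therefore mostly a result for *Fos* alone.

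The direction of the single genes was then read under other scalings. With library totals, the log2 fold changes of *Fos*, *Fosl2*, *Junb*, *Atf3* and *Batf* were 1.12, 1.26, 0.62, 0.75 and 0.63, and edgeR still called these 5 genes higher in LIP. With size factors from the 21 mature neutrophil genes, which rose by a median of 1.86 under TMM, 9 members were lower and *Fosl2*, at -0.15, was not called (adjusted p = 0.316). Under this scaling *Fos* stood at -0.30, *Atf3* at -0.66, *Junb* at -0.80, *Jund* at -1.57 and *Jun* at -1.72. *Fos*, *Junb*, *Atf3* and *Batf* were thus higher in LIP relative to all counted reads and lower relative to the average of the mature neutrophil genes. This does not hold for each gene of that list. Under TMM each of these members had a higher log2 fold change than *Camp*, *Ngp* and *Ltf*, and a lower one than most others. A change of scaling shifts all genes together, and under TMM *Fosl2* lay 1.68 and *Jun* 0.11 above the median of all genes tested.

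**Figure D3:**
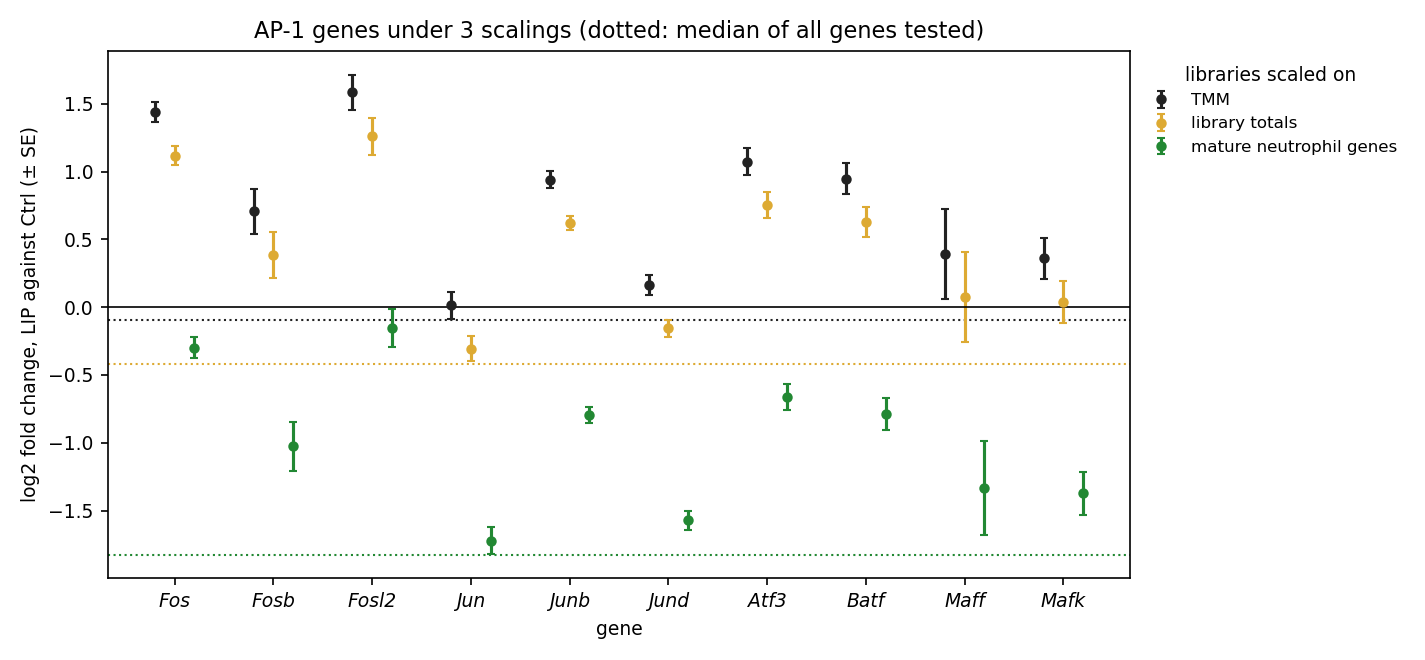
Points are log2 fold changes (LIP against Ctrl) of the 10 AP-1 genes with standard errors, for libraries scaled by TMM, by library totals or on the mature neutrophil genes, and dotted lines are the median of all genes under each. *Fos* goes from 1.44 under TMM to 1.12 and -0.30, and the order of the genes is kept while the level of all moves.

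Other bZIP genes, which bind related DNA elements, were examined as a list of 30, of which 23 were tested. Of these, 13 rose and 1 fell (edgeR, median log2 fold change 0.94), where 26.5% of all genes tested were higher and 27.2% lower. With library totals 11 were higher and 5 lower, with a median of 0.62. The most abundant were *Nfil3*, a repressor with a role in immune cell development, and *Nfe2*, a CNC factor of the megakaryocyte and erythroid lineages. *Nfil3* had 177 ± 22.8 CPM in Ctrl and 524 ± 21.6 CPM in LIP, and *Nfe2* had 150.01 ± 17.5 and 445 ± 13.3 CPM (SD, n = 3 each). Both rose by 1.57 on the log2 scale. *Jdp2*, a repressor that pairs with Jun proteins, had 41.0 ± 16.9 CPM in Ctrl and 127 ± 20.6 CPM in LIP (SD, n = 3 each) and rose by 1.63 on the log2 scale (edgeR adjusted p = 0.000508). The gene that fell was *Bach2*, a repressor known from B and T cells, at -2.11 (adjusted p = 4.26e-06 from edgeR), named after its values were seen. *Bach2* fell together with the B cell list, whose median was -2.47, and the part of B cell RNA in it was not tested. The nearest relatives of the members were looked up after the values were seen. *Fosl1*, which encodes the Fos protein FRA-1, had 16.6, 17.8 and 15.6 CPM in Ctrl and 51.6, 35.5 and 43.8 CPM in LIP, a rise of 1.39 on the log2 scale (edgeR adjusted p = 0.00015). *Mafg*, the remaining small Maf gene, had 31.7, 33.8 and 35.2 CPM in Ctrl and 78.3, 80.4 and 88.1 CPM in LIP, a rise of 1.29 (edgeR adjusted p = 1.58e-05). Neither overlapped between the groups, and whether *Mafg* differed from *Maff* and *Mafk* was not tested. Among partners of the small Maf proteins, *Nfe2l2* (NRF2) and *Bach1*, also named after their values were seen, had log2 fold changes of 1.43 and 1.37, and *Nfe2l1*, which was not called, one of -0.39 (edgeR adjusted p = 0.126).

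Immediate early genes, which are known to be induced together with *Fos* by many stimuli and by cell isolation, were listed as 32 names. Of 31 tested, 24 rose and 3 fell under TMM (median log2 fold change 0.97), beside the same 26.5% and 27.2% of all genes. With library totals 20 were higher and 3 lower, with a median of 0.65. *Ier3*, a gene of the stress response, had 98.3 ± 13.3 CPM in Ctrl and 433 ± 23.1 CPM in LIP (SD, n = 3 each), a rise of 2.14 on the log2 scale. *Zfp36*, whose product tristetraprolin binds AU-rich elements and speeds mRNA decay, rose by 1.93 and *Gadd45b*, a regulator of stress kinases, by 1.72. The most abundant were *Nfkbia*, the inhibitor of NF-kappaB, with 3608 ± 353 and 10422 ± 356 CPM, and *Dusp1*, a phosphatase that switches off MAP kinases, with 5677 ± 516 and 17060 ± 870 CPM (SD, n = 3 each). Both rose, with log2 fold changes of 1.53 and 1.59. *Myc*, a growth factor-induced regulator of proliferation, fell by 2.48 on the log2 scale, *Dusp2* by 0.70 and *Zfp36l1* by 0.68. All of these passed an adjusted p of 0.05 from edgeR, with standard errors of 0.0671 to 0.134 on the log2 scale. The B and T cell lists had medians of -2.47 and -2.39, and the part of lymphocyte RNA in the fall of *Myc* was not tested.

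Upstream of AP-1, mitogen-activated protein kinases (MAPK) phosphorylate Jun and the factors that act with SRF on the *Fos* promoter. Of 34 genes listed for these kinases and factors, 31 were tested, of which 15 rose and 3 fell under TMM (median log2 fold change 0.32), beside 26.5% and 27.2% of all genes. With library totals 13 were higher and 6 lower and the median was 0.000879, and with the erythroid genes left out of those totals 11 were higher and 11 lower and the median was -0.21. *Mapk13*, which encodes p38 delta, had 24.5 ± 2.06 CPM in Ctrl and 97.5 ± 17.7 CPM in LIP (SD, n = 3 each), a 3.99-fold rise (edgeR adjusted p = 3.92e-06). *Map2k3*, which activates p38, rose by 1.39 on the log2 scale. *Map3k3*, the most abundant of the list, rose by 1.09. The genes that fell were *Cops5*, a subunit of the COP9 signalosome that binds JUN, by 0.65, *Elk4*, a partner of SRF, by 0.60, and *Mapk9*, which encodes the Jun kinase JNK2, by 0.50 (adjusted p = 0.0491 from edgeR, named after its values were seen). *Srf* itself, looked up after the values were seen, was not called, at 0.32 (adjusted p = 0.264 from edgeR).

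With size factors from the mature neutrophil genes, 0 of the bZIP relatives were higher and 17 lower, 2 of the immediate early genes were higher and 25 lower, and 0 of the MAPK and SRF genes were higher and 29 lower. Over all genes tested 91 of 10440 were higher and 9066 lower under this scaling, so these counts say nothing particular to the lists.

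**Figure D4:**
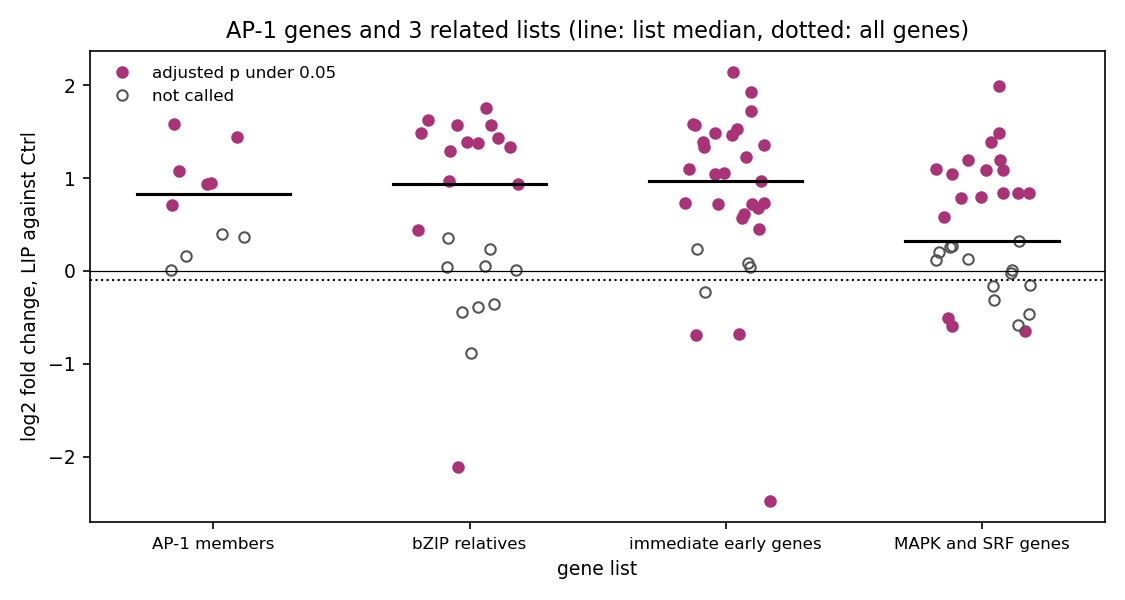
Points are log2 fold changes (LIP against Ctrl, TMM) of the tested genes of 4 lists, filled where the adjusted p was under 0.05, with list medians as lines and the median of all genes tested as a dotted line. The medians are 0.82 for the AP-1 members, 0.94 for other bZIP genes, 0.97 for immediate early genes and 0.32 for MAPK and SRF genes, and each turned negative with size factors from the mature neutrophil genes, while that of the MAPK and SRF genes was also negative, at -0.21, with library totals without erythroid genes.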

How the data were processed

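Neutrophil RNA of 6 Smart-seq2 libraries (3 Ctrl, 3 LIP, each a pool of 5 mice) was analysed. The authors deposited 2 values for each gene, raw read counts and FPKM, which the authors divided by gene length and library total. The submitters' processing notes name cutadapt 1.9, FastQC and GRCm38, while the aligner, the counting tool and the use of strand are not given in the sources used here. Reads carry no molecular identifiers, so PCR copies are counted as well. With 52186555 to 57262379 reads per library, the spread between libraries outweighs counting error.

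The 10440 of 29097 genes whose FPKM averaged 1 or more were tested with edgeR 4.0.16 (R 4.3.3), by the quasi-likelihood test on TMM-normalized counts, without a replicate block and with Benjamini-Hochberg adjustment. A standard error was derived from each log2 fold change and its F statistic. Groups came from the sample titles. No library repeated another, as chi-square per gene was 31.7 to 61.0 for libraries of the same group. The 3 ratios used two-sided exact permutation tests. Alternatives were other scalings, filters, limma 3.58.1 on log2(FPKM + 1) and log2(FPKM + 0.1), DESeq2 1.42.0, a replicate block, and leave-one-out fits. Library totals without the 11 erythroid genes were added after seeing the data. Fits were tested on simulated data in which few genes changed and the cell mix did not, so that test does not bear on the choice of scaling.

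The AP-1 members, the gene lists and the markers were chosen with earlier results of these data known. Named from each of the 3 further lists are the 3 highest and 3 lowest log2 fold changes among genes with an adjusted p under 0.05 and a mean FPKM of at least 5, and the 2 genes of highest mean FPKM, with some results not reported here. Motifs were matched in RefSeq promoter windows, which were found for all 10 members, and AU-rich elements in GENCODE M21 transcripts.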

Additional observations from a re-analysis of the deposited data

How the results depend on the processing

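The rises of *Fos*, *Fosl2*, *Junb*, *Atf3* and *Batf* kept their direction and call under 16 of 17 alternatives, all but scaling on the mature neutrophil genes. Under that scaling the log2 fold changes were -0.30 for *Fos*, -1.03 for *Fosb*, -0.15 for *Fosl2*, -1.72 for *Jun*, -0.80 for *Junb*, -1.57 for *Jund*, -0.66 for *Atf3*, -0.79 for *Batf*, -1.33 for *Maff* and -1.37 for *Mafk*, and the numbers higher and lower were 0 and 9 for AP-1 members, 0 and 17 for other bZIP genes, 2 and 25 for immediate early genes, and 0 and 29 for MAPK and SRF genes. By construction this moves all genes down together.

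*Jun* turned to -0.31 with library totals, -0.52 with library totals without erythroid genes, -0.29 in limma with either pseudocount, -0.166 under the stricter FPKM filter, and to -0.0137 without Ctrl replicate 3 and -0.0193 without LIP replicate 1. Leaving out each library, *Jun* ranged from -0.0381 (without Ctrl replicate 1) to 0.118 (without Ctrl replicate 2). *Jund* turned to -0.16 with library totals, -0.37 without erythroid genes, -0.14 in limma with either pseudocount and -0.0164 under the stricter FPKM filter, of 5, at which *Maff* was not tested. Without erythroid genes *Maff* turned to -0.14 and *Mafk* to -0.17. *Fosb* lost its call with library totals, without erythroid genes (0.17, edgeR adjusted p = 0.388) and in both limma fits. The cause was not tested.

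Numbers of lower genes moved too. Over all genes, 1454 were higher and 5131 lower without erythroid genes, and 2010 and 4249 (pseudocount 1) or 1974 and 4144 (pseudocount 0.1) in limma. AP-1 members lower were 1 with library totals and in both limma fits, and 2 without erythroid genes. Other bZIP genes lower were 5 in these 4 fits and 2 with the replicate block. Immediate early genes lower were 5 without erythroid genes. MAPK and SRF genes lower were 6 with library totals, 11 without erythroid genes and 5 in both limma fits. With each library left out in turn, 6 to 7 members rose and 0 fell, 11 to 13 bZIP genes rose and 1 to 2 fell, the second being present only without LIP replicate 3, 23 to 24 immediate early genes rose and 3 fell, and 14 to 15 MAPK and SRF genes rose and 2 to 4 fell. The ratio differences ranged from 0.73 to 0.79, from 0.47 to 0.53 and from -0.17 to -0.13.

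Same-numbered libraries of the 2 groups come from different mice, and their deviations from the group means correlated at 0.02, 0.06 and 0.04 across genes. The labels do not say whether they were prepared together, and this was not tested. With the replicate block, 2724 of all genes tested were higher and 2822 lower, beside 2766 and 2835 without it. Ctrl replicate 1 correlated slightly better with LIP replicate 3 (0.0217) than with its own number (0.021). Each other library correlated best with its own number.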
